A study of Caenorhabditis elegans with 2 samples.

Results

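The genes described here are 7 members of the basic helix-loop-helix (bHLH) family of Caenorhabditis elegans that make up the Myc, Mondo, Mad and HLH-30 network: mdl-1, mml-1, mxl-1, mxl-2, mxl-3, hlh-30 and hlh-11. They were 7 of 19973 nuclear protein-coding genes, and they were selected on the same peak lists that are described below, by the summits in the gene body or within 5 kb (5000 bp) upstream and by their signal and rank. The number, strength and rank of their peaks are therefore a description, and no test was run on them. The study mapped the binding of NHR-48, a nuclear hormone receptor, by chromatin immunoprecipitation with sequencing (ChIP-seq). It used strain OP518 (unc-119(tm4063) III; wgIs518), which carries an integrated transgene for NHR-48 fused at its C terminus to GFP and FLAG. Whole hermaphrodites at the L4 larval stage were collected 48.5 h after synchronisation from starved L1 larvae, and an antibody against GFP was used. There was 1 group with 2 biological replicates, both of that strain, age and treatment, so no condition could be compared with another. Binding in whole animals is averaged over all tissues, and the promoter that drives the transgene is not stated in the labels.

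Proteins of this network bind forms of the E-box, a short palindromic DNA sequence, as pairs, and members that bind the same form can compete for sites. MDL-1, a Mad-like protein, pairs with the Max-like protein MXL-1, and MML-1, the worm relative of Myc and Mondo proteins, pairs with MXL-2. HLH-30, the worm counterpart of mammalian TFEB, activates autophagy and lysosomal genes, MXL-3 represses lysosomal lipase genes in fed animals, and HLH-11, the counterpart of AP-4, represses the lipase gene atgl-1. The data show where NHR-48 lay at the genes that encode these proteins, and not where the proteins themselves bind.

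NHR-48 peaks lay at 5 of the 7 genes. The genes mxl-1 and mxl-2 had 0 peaks, mdl-1 had 4 and mml-1 had 2. The remaining peaks lay at mxl-3 (5), hlh-30 (4) and hlh-11 (1), which gives 16 summits in 14 separate intervals. A peak here is a region of the list that passed the authors' irreproducible discovery rate (IDR) procedure, which held 3338 nuclear peaks, and its summit is the position of highest signal given by the authors. Of all protein-coding genes, 20.0% had 1 or more such summits in the same window, so a gene with 0 was common. The members were chosen on these summits, so nothing is read from their higher share.

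The sequences at 7 of these peaks were picked as examples after the matches were counted, and each is shown as 120 bases around the summit on the plus strand of ce11, from the RefSeq sequence of that assembly. Capitals mark the palindromic E-box CACGTG. They also mark the E-box form CAGCTG, which AP-4 proteins bind, the repeat GAGAGA and the sequence TGATAA, which GATA factors bind. Each was searched on both strands, with overlapping matches counted. The first group is shown because an E-box lies beside the summit at mdl-1 and mml-1, and within 58 bp of it at mxl-3. The second is shown because hlh-30 peaks carry GAGAGA, and the last because the single hlh-11 peak holds none of these sequences in its central 100 bp, as was so for 7 of the 16 peaks, the mxl-3 one included. In whole intervals the hlh-11 peak and both the distal and the proximal mdl-1 peak hold GAGAGA too, so this grouping depends on the window.
mdl-1 distal peak, chrX:6737732-6737851: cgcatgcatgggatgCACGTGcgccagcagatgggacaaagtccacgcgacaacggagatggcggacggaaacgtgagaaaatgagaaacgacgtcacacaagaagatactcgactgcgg
mdl-1 proximal peak, chrX:6742161-6742280: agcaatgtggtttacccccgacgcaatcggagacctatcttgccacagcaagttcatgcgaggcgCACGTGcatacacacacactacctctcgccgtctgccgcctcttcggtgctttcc
mml-1 distal peak, chrIII:7376540-7376659: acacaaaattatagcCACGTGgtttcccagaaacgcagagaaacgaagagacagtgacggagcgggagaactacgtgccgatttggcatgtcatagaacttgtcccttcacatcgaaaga
mxl-3 strongest peak, chrX:13353643-13353762: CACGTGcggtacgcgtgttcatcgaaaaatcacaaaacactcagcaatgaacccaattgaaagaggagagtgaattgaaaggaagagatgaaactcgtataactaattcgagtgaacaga
hlh-30 first intronic peak, chrIV:4028291-4028410: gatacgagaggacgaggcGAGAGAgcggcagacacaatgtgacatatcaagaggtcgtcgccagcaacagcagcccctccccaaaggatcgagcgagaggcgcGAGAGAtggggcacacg
hlh-30 last peak, chrIV:4019982-4020101: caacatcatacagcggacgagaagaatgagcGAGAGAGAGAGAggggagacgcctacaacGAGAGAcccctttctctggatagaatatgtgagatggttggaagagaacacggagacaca
hlh-11 peak, chrIII:9619375-9619494: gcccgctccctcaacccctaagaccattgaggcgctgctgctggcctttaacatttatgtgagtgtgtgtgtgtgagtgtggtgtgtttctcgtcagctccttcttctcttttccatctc

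The window of mdl-1, the gene of the Mad-like protein, held the strongest peaks counted for the network. mdl-1 (WBGene00003163, chrX:6742351-6743899, plus strand) had a distal peak at chrX:6737371-6738175, with its summit 4559 bp upstream of the gene in intergenic sequence. The signal there reached 2591 in the pooled list, 1636 in replicate 1 and 971 in replicate 2, and the peak ranked 3 among nuclear regions in the pooled list, 2 in replicate 1 and 5 in replicate 2. Signal is the authors' value on the peak caller's scale and is compared within a list only, so ranks are given beside it. The proximal peak, chrX:6741567-6742543, had its summit 130 bp upstream of the 5′ end, with signals of 1383 (pooled), 896 (replicate 1) and 492 (replicate 2), and it ranked 23, 21 and 26. Both peaks were thus near the top of all lists.

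Weaker peaks at mdl-1 lay between and beyond them. A peak with its summit 2880 bp upstream had signals of 304 (pooled), 184 (replicate 1) and 122 (replicate 2), at ranks 538, 518 and 586. An intronic peak 718 bp inside the gene had a pooled signal of 126 and ranked 2293, with 92.7 and rank 1658 in replicate 1 but 24.3 and rank 8756 in replicate 2. That intronic peak was the member peak with the largest gap in rank between the replicates. The distal peak lay about midway in the 9049 bp between mdl-1 and the divergent gene R03E9.2. The 5′ end of R03E9.2 was 4491 bp from the summit, slightly nearer than that of mdl-1. The summit was thus also within 5 kb upstream of R03E9.2.

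Peaks at mdl-1 went on past the limits of its window. Upstream, summits at 5526 bp (signal 151), 5730 bp (761, rank 94) and 6609 bp (191) lay just outside the 5 kb limit, and 6 summits fell in the whole 9049 bp gap. Downstream, a peak of signal 1507 and rank 17 had its summit 126 bp past the 3′ end of the gene. It was stronger than the proximal peak and was not counted among the members' peaks.

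When genes were ordered by their strongest summit in the window, mdl-1 was gene 3 of 4004 with a peak. Above it were dmd-7, which encodes a DM-domain protein (signal 2955), and R11F4.1 (2701). Below it came R03E9.2, with the same summit, and nhr-68, a gene of the same receptor class as nhr-48 (2512), whose summit also lay in the windows of pms-2 and H12C20.7. With 1 condition, this likeness is of signal only.

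mxl-3, like mdl-1, had many summits in a short window. mxl-3 (WBGene00003511, chrX:13349639-13350804, minus strand) had 5 summits in 3 intervals, or 8.11 summits per 10 kb of body and upstream window, against 6.11 at mdl-1, whose 4 summits lay in 4 intervals, and 0.333 over the nuclear genome. With 1000 or 2000 bp upstream in place of 5000 bp, mxl-3 had 1 summit and mdl-1 had 2. Its strongest summit lay 2899 bp upstream in the interval chrX:13353508-13353986, with signals of 675 (pooled), 395 (replicate 1) and 285 (replicate 2) and ranks of 113, 125 and 103. A second summit of that interval, 3105 bp upstream, had signals of 175 (pooled), 114 (replicate 1) and 109 (replicate 2) and ranked 1361, 1187 and 719. The interval chrX:13355006-13355433 held a summit 4356 bp upstream with signals of 553 (pooled), 333 (replicate 1) and 215 (replicate 2), at ranks 167, 169 and 172. These 2 strong summits had close ranks in all 3 lists. A weaker summit of that interval, 4565 bp upstream, had signals of 118 (pooled), 49.2 (replicate 1) and 65.9 (replicate 2), at ranks 2500, 4123 and 1773. The peak closest to the gene, chrX:13350925-13351209, was 225 bp upstream with signals of 313 (pooled), 219 (replicate 1) and 91.3 (replicate 2), at ranks 517, 375 and 984.

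The 5 kb limit also fell within the mxl-3 cluster. The gap of 10396 bp between mxl-3 and the next protein-coding gene upstream, C49F8.15, held 11 summits in 8 intervals, a count made after the values were seen. The strongest of them lay beyond the limit, at 5796 bp (signal 1068, rank 39) and 7944 bp (1197, rank 28), and both exceeded every peak inside it. The members just inside and outside the limit thus differed little in distance, with mxl-3 and mdl-1 summits at 4565 and 4559 bp inside and at 5796 and 5526 bp outside. Downstream of mxl-3, and also outside its window, summits lay 128 bp (signal 136, rank 2048) and 1084 bp (255, rank 724) past the 3′ end.

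**Figure D1:**
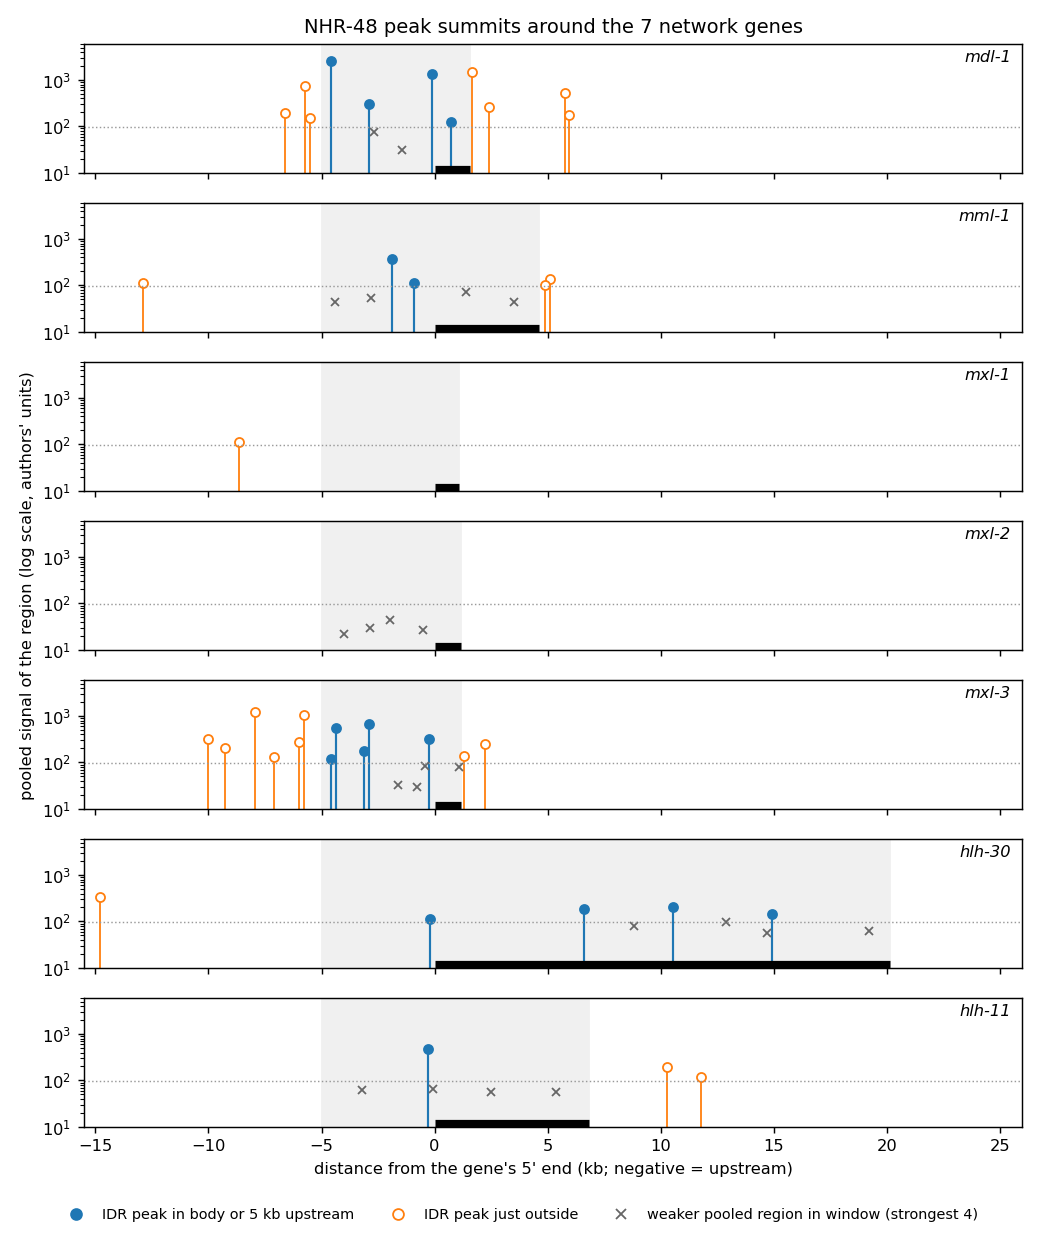
NHR-48 summits around the 7 genes, with the distance from the gene's 5′ end in kb (negative is upstream) on the x axis and the authors' pooled signal on a log y axis. Filled circles are IDR peaks in the gene body or 5 kb upstream (grey area), open circles are IDR peaks up to 15 kb upstream or 5 kb downstream outside it, crosses are up to 4 of the strongest weaker pooled regions, the black bar is the gene and the dotted line is the lowest signal of an IDR peak, 95.4. The peaks of mdl-1 and mxl-3 stand highest, with further ones just outside their windows, while mxl-1 has no region and mxl-2 only weak ones in theirs.

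The Mondo-like gene mml-1 (WBGene00003378, chrIII:7370130-7374731, minus strand) had 2 peaks in its window, both upstream. The stronger, chrIII:7376481-7376730, had its summit 1869 bp upstream, with signals of 372 (pooled), 220 (replicate 1) and 154 (replicate 2) and ranks of 343, 369 and 354. The weaker, chrIII:7375412-7375887, was 919 bp upstream with signals of 114 (pooled), 53.3 (replicate 1) and 60.5 (replicate 2), and it ranked 2641, 3705 and 2050. Both lay in the 3119 bp between mml-1 and T20B12.7. Past the 3′ end, and so outside the window, peaks had their summits at 297 bp (signal 102, rank 3073) and 512 bp (136, rank 2053), the latter stronger than the weaker upstream peak. Inside the gene, the strongest pooled region was in a coding exon 1374 bp from the 5′ end, with a signal of 72.1 and rank 4915, below the IDR list.

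At hlh-11 (WBGene00001955, chrIII:9619711-9626529, plus strand) a single IDR peak lay in front of the gene. Its summit, in chrIII:9619252-9619570, lay 276 bp upstream, with signals of 476 (pooled), 292 (replicate 1) and 188 (replicate 2) and ranks of 211, 217 and 233. It was also within the upstream window of hcp-3, the gene of the centromeric histone H3 variant, on the other strand. The next pooled region in the window had a signal of 65.9 and rank 5665.

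hlh-30 (WBGene00020930, chrIV:4014793-4034951, minus strand) had 4 peaks, weaker than the strongest of the other genes with peaks, and 3 of them lay inside the gene. The gene spans 20159 bp and has 10 annotated transcript 5′ ends. One summit lay 204 bp upstream of the first 5′ end (signals 114 pooled, 58.2 in replicate 1 and 55.4 in replicate 2, ranks 2656, 3249 and 2333). An intronic summit 6600 bp inside the gene lay 224 bp upstream of an internal 5′ end, with signals of 189 (pooled), 87.5 (replicate 1) and 101 (replicate 2) and ranks of 1221, 1813 and 823. The strongest, 10558 bp inside and also intronic, had signals of 205 (pooled), 126 (replicate 1) and 74.1 (replicate 2) and ranks of 1043, 999 and 1405. The last, 14909 bp inside, fell in an exon of the noncoding gene W02C12.4, 998 bp upstream of the nearest of the later 5′ ends. Its signals were 144 (pooled), 88.3 (replicate 1) and 64.1 (replicate 2), at ranks 1858, 1790 and 1852.

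The window of hlh-30 was the longest of the 7, 25159 bp, and long windows hold a summit more often. Among genes whose windows were 20 kb or more, 30.2% had 1 or more summits, against 16.3% of genes with windows under 7 kb, the class of mdl-1, mxl-1, mxl-2 and mxl-3. Over its window hlh-30 had 1.59 summits per 10 kb, against 2.08 at mml-1 and 0.846 at hlh-11. A pooled region 12883 bp inside hlh-30 showed where the IDR threshold fell: with a signal of 95.24 and rank 3344 it was left out, while the weakest IDR peak had 95.40 and the next pooled region 95.36. Of all protein-coding genes, 0.591% had 4 or more summits, as mdl-1, mxl-3 and hlh-30 did, and summits of 1 interval were counted separately there.

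The regions at mxl-2 lay below the IDR list, and mxl-1 was outside all lists. mxl-2 (WBGene00003510, chrIII:186949-188131, minus strand) had 4 weak pooled regions in its window. The strongest, with a signal of 43.1 and rank 10989, lay 1969 bp upstream in an intron of the neighbouring gene ubc-20, and replicate 1 and replicate 2 had 1 region each, at ranks 10124 and 8828. The 2 replicate regions were at different places, 1960 bp upstream in replicate 1 and 543 bp upstream in replicate 2. mxl-1 (WBGene00003509, chrV:11244839-11245926, plus strand) had 0 regions in its window in the pooled list and in both replicates. This was common: 32.8% of all protein-coding genes, and 41.3% of those with windows under 7 kb, had no pooled region. The lists give no read depth, so a region too weak to be listed could not be told from no binding. The gap to the next protein-coding gene in front was 112 bp between mxl-1 and pgap-1 and 706 bp between mxl-2 and ubc-20. It was 3119 bp or more at the other 5 genes. The 5 kb windows took in sequence of these neighbours, and whether the gap bears on the lack of peaks was not tested.

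Both replicates put the genes in the same order by their strongest region. mdl-1 was first (rank 2 in replicate 1 and 5 in replicate 2), followed by mxl-3 (125 and 103), hlh-11 (217 and 233), mml-1 (369 and 354), hlh-30 (999 and 823) and mxl-2 (10124 and 8828). The rank pairs of neighbours in this order did not overlap, with 2 replicates to judge by. Ranks were used to choose the members, so this order is a description. At hlh-30 and mxl-2 the pair was of different places. The strongest hlh-30 region was 10558 bp inside the gene in replicate 1 and 6560 bp inside in replicate 2. At mxl-2 the regions were 1960 and 543 bp upstream. Each of the 16 member peaks was overlapped by a region in both replicate lists, with summits at most 32 bp apart in replicate 1 and 49 bp in replicate 2 from the pooled summit. The replicate lists were an input of IDR, so the selection of peaks had already used them. Among the 3361 strongest regions of a replicate, as many as the IDR list holds with mitochondrial DNA, 14 member peaks were found in replicate 1, 15 in replicate 2 and 13 in both. The exceptions were the weak mml-1 and mxl-3 summits (ranks 3705 and 4123 in replicate 1) and the intronic mdl-1 peak (rank 8756 in replicate 2). The same shares over all nuclear peaks are not given here. Nothing is therefore read from these replicate counts about the members.

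**Figure D2:**
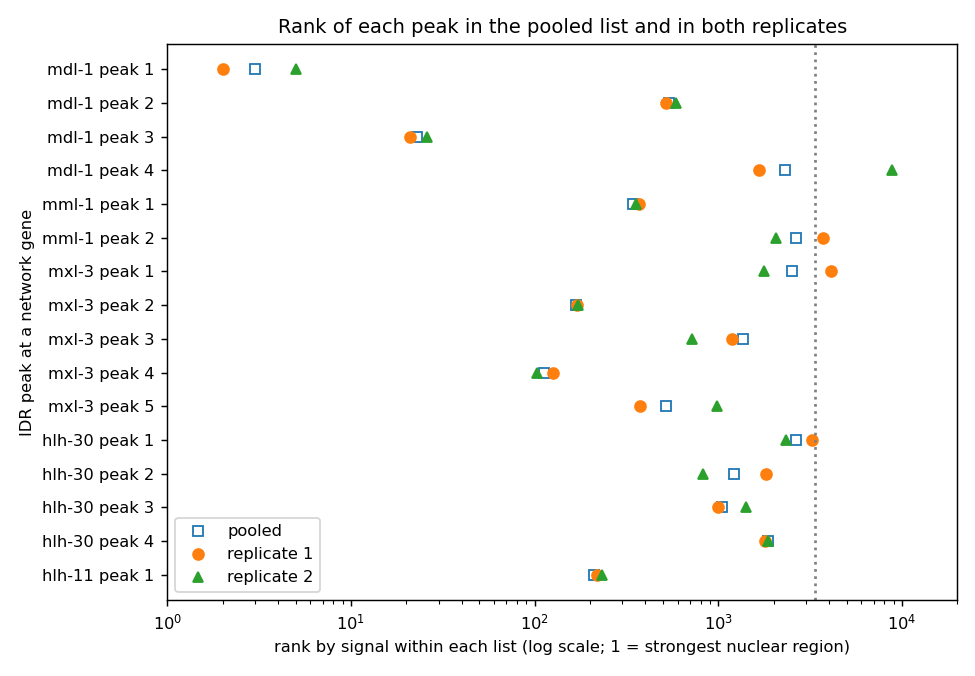
Rank by signal among nuclear regions of each of the 16 member peaks (log x axis, 1 is strongest) in the pooled list (squares), replicate 1 (circles) and replicate 2 (triangles), with peaks numbered from the most upstream. The dotted line is at 3361, the length of the IDR list; the strong peaks of mdl-1, mxl-3, mml-1 and hlh-11 have nearly the same rank in all lists, and the intronic mdl-1 peak (mdl-1 peak 4) has ranks of 1658 and 8756.

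The peaks of the network were spread in strength and mostly lay between genes. Their median pooled signal was 255, against 155 over all 3338 nuclear peaks, 11 of the 16 were in the upper part of the list down to rank 1669, and 5 were among the top 333. These values were used to choose the members. Of the 16 summits, 12 lay upstream of the gene and 4 inside, and by annotation 12 were intergenic, 3 intronic and 1 in a noncoding exon. The classes of all nuclear peaks are not given here, and the window itself adds 5 kb upstream. Nothing is therefore read from these counts about the members. Within 300 bp upstream of the gene there were 4 summits, 1 each at mdl-1, mxl-3, hlh-30 and hlh-11, while 6 lay more than 2000 bp upstream, all at mdl-1 and mxl-3. No transfer RNA gene was closer than 42928 bp to a member summit. The central 100 bp held a median of 49% G and C (range 33 to 60), against 44% at all nuclear peaks.

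Sequence was not used to choose the members. CACGTG occurred in the central 100 bp of 3 of the 16 member peaks (18.75%, exact 95% interval 4.05 to 45.6), against 7.91% of all nuclear IDR peaks and 2.23% of 25416 weaker pooled regions. The interval includes the share of all peaks, so a difference was not detectable with 16 peaks, some of which share an interval. CACGTG was also more frequent at strong peaks in general, with 15.6% of the top 333. The 3 peaks were the strongest of mdl-1, its proximal peak and the stronger of mml-1, and the E-box centre was 42.5, 7.5 and 42.5 bp from the summit.

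The whole intervals of the mdl-1 peaks held 7 copies of CACGTG. There were 3 in the distal peak, 3 in the proximal peak and 1 in the peak between them. In both strong mdl-1 peaks the copy nearest the summit read GCACGTGC, a flank found in 15 of the 264 nuclear peaks with an E-box at the summit (5.68%), and at mml-1 it read CCACGTGG, found in 25 of them (9.47%). The interval of the stronger mml-1 peak held 2 copies. At mxl-3, 1 E-box lay in the interval of the strongest peak, with its centre 57.5 bp from the summit. hlh-30 and hlh-11 had 0 copies in any peak interval. TCACGTGA was in 0 member peaks in the central 100 bp (1.14% of all nuclear peaks had it) and in 1 whole interval, that of the mdl-1 peak between the strong ones (6.25%, against 2.79% of all nuclear peaks). In the central 100 bp the general form CANNTG was in 7 of 16, or 43.75%, close to the 43.0% of all peaks.

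GAGAGA occurred in the central 100 bp of 5 member peaks (31.25%, exact 95% interval 11.02 to 58.7), against 21.9% of all nuclear peaks and 8.43% of weaker regions. These were all 4 peaks of hlh-30, with 1, 2, 1 and 5 matches from the first to the last (overlapping ones counted), and the intronic mdl-1 peak with 2. No member peak had both CACGTG and GAGAGA there, and 8 had neither, while 35 of all 3338 peaks had both. In whole intervals GAGAGA was in 10 of 16 (62.5%, exact 95% interval 35.4 to 84.8), against 49.6% of all nuclear peaks, with 6 matches in the distal and 2 in the proximal mdl-1 peak. The hlh-11 peak had 0 in 100 bp, 4 in 200 bp and 5 in its whole interval. CAGCTG was in 1 member peak, the mxl-3 summit 4356 bp upstream (3.39% of all nuclear peaks). TGATAA was in 0 of 16, for which the exact 95% interval reaches 20.6%, against 20.3% of all nuclear peaks, so a difference was not detectable. In whole intervals TGATAA was in 4 of 16 (25%, exact 95% interval 7.27 to 52.4), against 50.7% of all nuclear peaks: the weaker mml-1 peak had 3 copies and 3 of the mdl-1 peaks had 1 each. A match says only that these letters are present in the window.

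**Figure D3:**
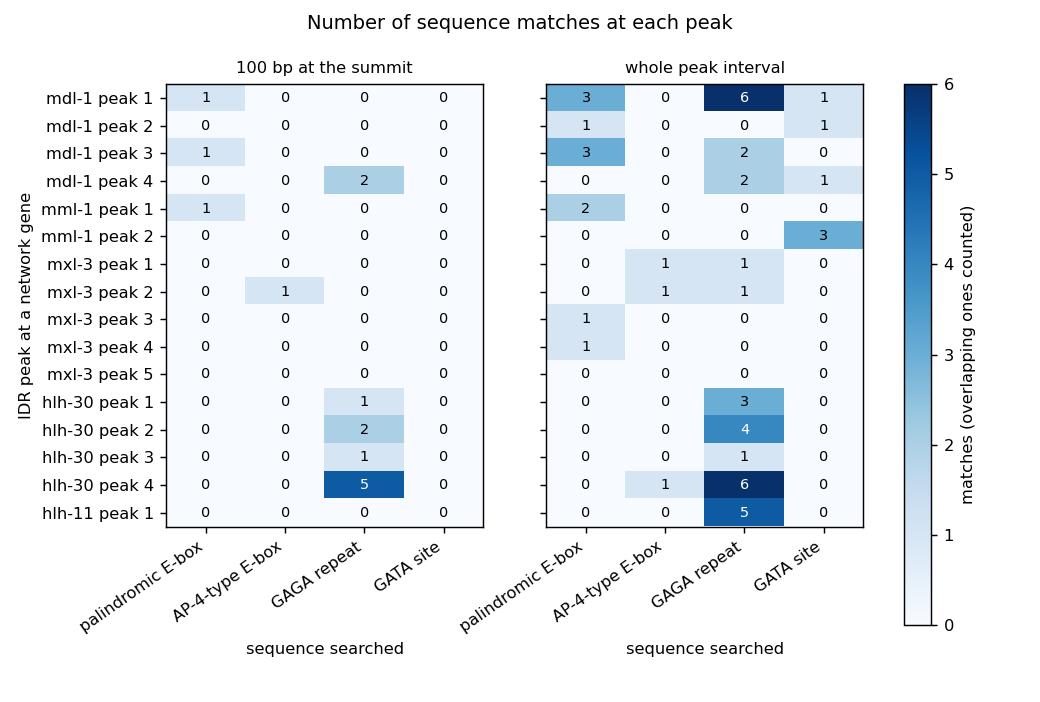
Number of matches, overlapping ones counted, of the 4 sequences (palindromic E-box, AP-4-type E-box, GAGA repeat and GATA sequence) in each of the 16 member peaks, in 100 bp at the summit (left) and in the whole peak interval (right). Peaks 1 and 2 and peaks 3 and 4 of mxl-3 share an interval; E-boxes sit at mdl-1, mml-1 and mxl-3, and the 4 hlh-30 peaks have 1, 2, 1 and 5 GAGAGA matches at the summit.

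The 3 lists of related genes that follow were chosen with earlier results of these data known, so their shares are a description. Other genes of the bHLH family had peaks at 5 of 34, or 14.7%, close to or below the 20.0% of all protein-coding genes. The strongest was at hif-1, the gene of the hypoxia-inducible factor, with a signal of 945 and rank 62 at 1993 bp upstream. hlh-27 (584, rank 147) and aha-1, whose product pairs with HIF-1 (196, rank 1145), followed. hlh-13 (143) and hnd-1 (135) had weak summits 4523 and 3462 bp upstream, and no region of replicate 1 overlapped that of hnd-1. The median of the strongest signal per gene was 196 over these 5 genes and 167 over all 4004 genes with a peak. None of the 34 had 4 or more summits, but only 0.591% of all protein-coding genes did, so nothing is read from this.

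Genes of nutrient signalling that act upstream of or beside HLH-30 and MML-1 had peaks at 8 of 17, or 47.1%, against the same 20.0%. Their windows were longer, with a median of 12162 bp against 7027 bp for all protein-coding genes. The strongest were at skn-1, a stress response factor (666, rank 119, 6 summits), the TOR activator gene rheb-1 (375, rank 337) and daf-16, the FOXO factor of insulin signalling (328, rank 466, 10 summits). aak-2, an AMP-activated kinase subunit (279), flcn-1, the folliculin gene (239), and rsks-1, the S6 kinase gene (156), came next, and xpo-1 (117) and nprl-2 (95.7) had the weakest. The TOR kinase gene let-363, its partner genes daf-15, rict-1 and mlst-8, and raga-1, ragc-1, nprl-3, aak-1 and akt-1 had 0 peaks. The median strongest signal was 259 over the 8 genes.

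Cofactor and target genes of the network, a list that also holds nucleolar genes, had peaks at 11 of 19, or 57.9%. Of all protein-coding genes, the share was 20.0%. The autophagy genes lgg-2, an LC3-like protein (1174, rank 30), sqst-1, the p62-like cargo receptor (571, rank 154), atg-18 (283), lgg-1 (270) and bec-1 (103) had peaks, and atg-9 and unc-51 had 0. Of the lipase genes, atgl-1 (522, rank 186), lipl-2 (446, rank 237) and lipl-5 (355, rank 378) had them, and lipl-1, lipl-3 and lipl-4 had 0. The atgl-1 summit lay 1826 bp upstream in the 3′ UTR of another gene. ncl-1 (230), fib-1 (144), which encodes nucleolar fibrillarin, and pha-4 (139) had weaker ones. The corepressor genes sin-3 and hda-1, whose mammalian counterparts act with Mad proteins, and trr-1 had 0. The median strongest signal was 283 over the 11 genes.

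**Figure D4:**
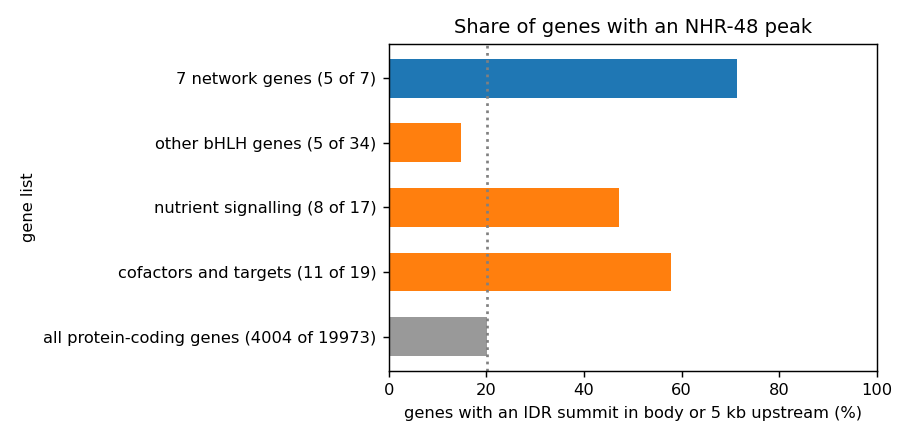
Share of genes with 1 or more IDR summits in the gene body or 5 kb upstream (x axis, percent) for the 7 network genes, the 3 lists of related genes and all protein-coding genes, with the counts beside each name; the dotted line marks 20.0%. The network genes were chosen on these summits and the lists with earlier results known, and the lists range from 14.7% for other bHLH genes to 57.9% for cofactors and targets.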

How the data were processed

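Per the deposited file listings, the authors called regions with background for each replicate and for both pooled, against 1 control file, as input for IDR, and derived the optimal IDR list from them. For aligner, caller, versions and IDR threshold, the name or value is not given in the sources used here. Each deposited signal value is on the caller's own scale, and read depth is unknown, so the number of peaks limits the precision. Lists on ce11 were used, with ranks among nuclear regions (3338 IDR, 29976 pooled, 26921 in replicate 1 and 22681 in replicate 2). The 23 mitochondrial IDR peaks and the ce10 lists were left out. Every nuclear IDR peak had the same rank in the pooled list.

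Genes came from Ensembl release 115 and sequence from RefSeq, both WBcel235, and 0 regions ran past a chromosome end. A summit counted for each gene whose body or 5000 bp upstream held it. Replicate values are those of the overlapping region (at least 1 bp) with the nearest summit. Sequences were searched in 100 bp centred on the summit. Exact intervals are Clopper-Pearson and cover counting error only. No hypothesis test was run, and the assignment and search code was tested on simulated regions. Members and lists were chosen with earlier results of these data known. Named genes are the members, genes sharing their summits, neighbours of mdl-1 by signal and up to 6 genes per list by signal; others were named after their values were seen. The code ran in Python 3.11.15 with scipy 1.17.1, pandas 2.3.3 and numpy 2.4.6, and matplotlib 3.10.9 drew the plots.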

Additional observations from a re-analysis of the deposited data

How the results depend on the processing

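Leaving out replicate 1 or replicate 2, by taking the 3361 strongest regions of the other, kept 5 members with a summit and gave 18 summits either way. It gave 3 to 4 member peaks with CACGTG, 7.06% to 7.25% of all peaks with it, 19.7% to 20.0% of protein-coding genes with a summit, and 5 to 6 other bHLH, 8 nutrient signalling and 11 cofactor or target genes. The width of the gene window mattered most. With the gene body only, 2 members (mdl-1 and hlh-30) had 4 summits, against 4.17% of all genes, and 1 other bHLH, 4 nutrient signalling and 3 cofactor or target genes had one. With 1000 bp upstream, members had 9 summits, all genes 11.1%, other bHLH genes 3 and nutrient signalling genes 5. With 2000 bp the values were 10 summits, 13.8% and 3 other bHLH genes, and with 10000 bp 25 summits, 28.8% and 11 other bHLH genes. At 10000 bp mxl-1 had 1 summit as well. With 1 gene per summit, 11.4% of all genes, 2 other bHLH and 5 nutrient signalling genes had a summit. The members then had 15 summits, with 3 in place of 4 at mdl-1. Counting overlapping intervals gave 21.1% of all genes, and the stronger part of the IDR list, down to rank 1669, gave 11.1% and 3 other bHLH genes, with CACGTG in 10.1% of its peaks. CACGTG was in 1 member peak and 4.37% of all peaks with 50 bp at the summit, in 5 and 12.6% with 200 bp, and in 6 and 17.9% with the whole interval. The members' share was above that of all peaks in each of these windows. Its exact 95% interval included the share of all peaks each time, so a difference was not detectable. In whole intervals, mxl-3 summits that share an interval counted the same E-box. Of 68 alternative values, 39 held, meaning that a count changed by at most 1.5 times or a share over all genes or peaks stayed within its exact 95% interval. Read depth is unknown and limits what an absent region at mxl-1 can show. No paired analysis was possible because there is 1 group.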
